A study of Sus scrofa with 6 samples.

Results

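High-mitochondrial FABP6 enterocytes are epithelial barcodes named for FABP6, a gene of absorptive cells of the distal small intestine, and for a large share of transcripts from the mitochondrial genome, and a few of them also held many goblet or hormone transcripts. They were chosen as barcodes with at least 1000 unique molecular identifiers (UMIs) and 200 genes, at least 25% of UMIs on the 13 protein-coding mitochondrial genes, at least 5 FABP6 UMIs and at least 2 UMIs of EPCAM, KRT8 and VIL1 together. Of 78685 barcodes past the UMI and gene minimum, 244 met this rule, and 848 met the same marker rule with less than 25% mitochondrial UMIs. The latter are called low-mitochondrial FABP6 enterocytes, and each comparison was made with them inside the same library, per 10000 non-mitochondrial UMIs. The mitochondrial share, FABP6, EPCAM, KRT8 and VIL1 chose the barcodes, so the members were selected on measured values, which are given as descriptions and were not tested.

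The cells came from the ileal mucosa of male Large White piglets that were fed maternal milk, at birth and on days 1, 3, 7, 14 and 21, without other treatment. The study names 5 piglets per age and 1 chip channel per age, so each age was 1 library and piglets cannot be told apart within it. Cells were released in EDTA and TrypLE and captured for 3′ end counting of transcripts.

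FABP6 is the ileal bile acid binding protein, which carries bile acids through the enterocyte between the apical importer SLC10A2 and the basolateral exporter formed by SLC51A and SLC51B. GUCA2A encodes guanylin, a peptide that acts on the receptor GUCY2C to drive fluid secretion, and NAALADL1 encodes a brush border peptidase. The mitochondrial genome encodes subunits of respiratory complexes I, III, IV and V. The other subunits, complex II and the proteins of the mitochondrial ribosome are encoded in the nucleus and translated on cytosolic ribosomes.

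The members were found mainly in the youngest libraries. In order of age there were 97, 97, 10, 37, 3 and 0, out of 11801, 12093, 11814, 12890, 16068 and 14019 barcodes past the minimum. On day 21, 0 of 14019 barcodes met the marker rule at any mitochondrial share. Epithelial barcodes with fewer than 5 FABP6 UMIs were also fewest in the oldest libraries, with 3374, 1420, 186, 515, 20 and 4 in order of age. The lower number of members at later ages therefore cannot be told apart from the lower number of epithelial barcodes. The members' part of all FABP6 enterocytes from day 0 to day 14 was 16.1% (95% Clopper-Pearson interval 13.2 to 19.2), 33.1% (27.7 to 38.8), 58.8% (32.9 to 81.6, of only 17 barcodes), 26.6% (19.5 to 34.8) and 7.69% (1.62 to 20.9). These intervals cover counting error only, and with 1 library per age no test between ages was possible. The median low-mitochondrial barcode had 15.1 FABP6 UMIs per 10000 on day 0 and 21.0 on day 1. Free RNA (barcodes with few UMIs, defined below) had 10.4 and 17.5, and B cell-like barcodes far less. Whether all barcodes counted as FABP6 enterocytes on these days expressed FABP6 was not tested. The shares are therefore shares of barcodes that met the marker rule. A share of 25% or more was not particular to FABP6 enterocytes. Among epithelial barcodes with fewer than 5 FABP6 UMIs it was reached by 18.3%, 32.5%, 44.1%, 41.9% and 35% from day 0 to day 14. B cell-like barcodes had at least 3 UMIs of CD79A, CD79B and MS4A1 and none of the epithelial genes. Of these, 0.523% to 2.11% reached it in the 6 libraries. Of all barcodes outside the marker rule, 17.88%, 12.96%, 10.46%, 6.53%, 2.21% and 4.14% reached it from day 0 to day 21. This set includes both groups above. Its share was above the 16.1% of FABP6 enterocytes on day 0 and below theirs from day 1 to day 14. No barcode sequence of a member occurred among the members of another library.

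The members held little RNA. The median number of non-mitochondrial UMIs was 1276, 1190, 1428, 1327 and 688 from day 0 to day 14, against 16885, 21768, 11322, 8797 and 6300 in the low-mitochondrial cells. The median number of mitochondrial UMIs was 1255 against 1859 on day 0 and 1372 against 2089 on day 1, so the members of these days carried fewer mitochondrial transcripts per barcode, whereas it was 1456 against 1024 on day 3 and 955 against 764.5 on day 7. The median mitochondrial share was 43.0%, 50.7%, 40.9%, 42.3% and 35.8% from day 0 to day 14, and the highest was 79.8%, on day 0. Within the members the share fell with the number of non-mitochondrial UMIs, which also enter its denominator, with a Spearman correlation across barcodes of one library of -0.65 on day 0 (97 barcodes), -0.65 on day 1 (97) and -0.66 on day 7 (37).

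**Figure D1:**
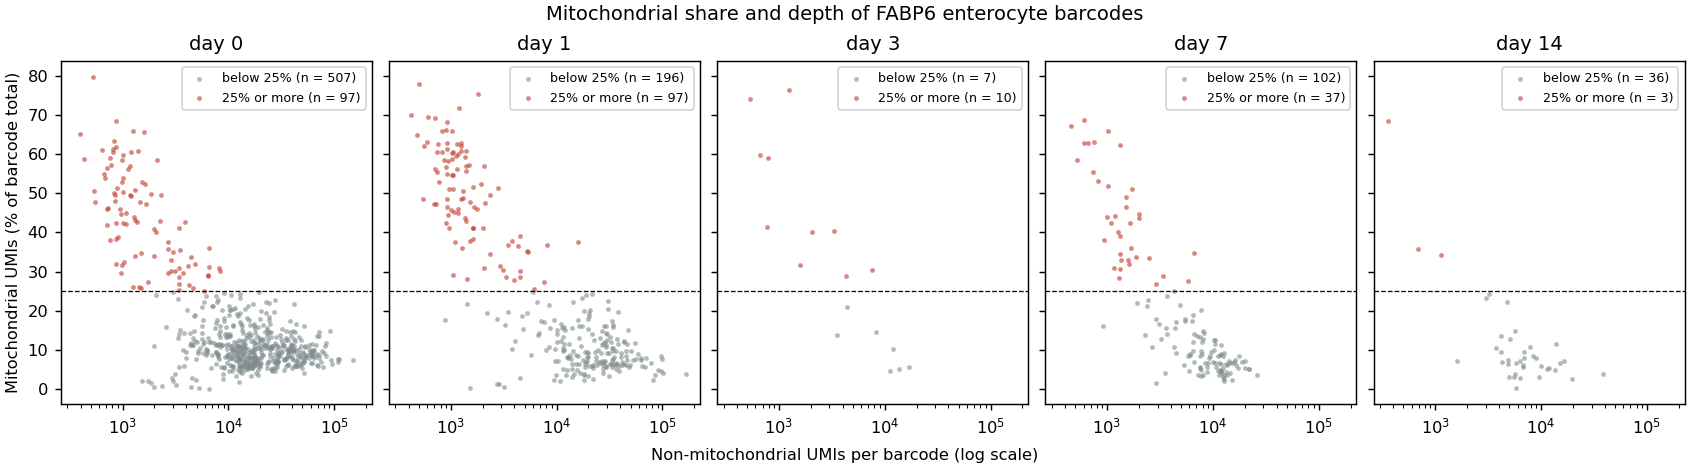
Each point is 1 FABP6 enterocyte barcode, with non-mitochondrial UMIs on a log axis and the percentage of UMIs on the 13 mitochondrial genes on the other, in 1 panel per library; the dashed line is the 25% threshold. Red points (97, 97, 10, 37 and 3 members) lie at lower non-mitochondrial UMI numbers than most grey points (507, 196, 7, 102 and 36 low-mitochondrial barcodes).

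On days 0, 1 and 7 the classes nearly met at the threshold. The highest low-mitochondrial share was 24.86%, 24.70% and 24.98%, and the lowest share of a member 25.15%, 25.46% and 26.83%. On days 3 and 14, with few barcodes, there was a gap, from 20.9% to 28.8% and from 24.2% to 34.3%. On day 0 there were 15 members between 25% and 30%, with a median of 3429 non-mitochondrial UMIs and a summed FABP6 level of 162 per 10000, beside 31 low-mitochondrial barcodes between 20% and 25% with a median of 10284 and a level of 159. On day 1 the 7 barcodes just inside had a FABP6 level of 150 and the 12 just outside had 35.8. On day 7 the 4 just inside had 62.5 and the 7 just outside 57.6. The barcodes just inside already held fewer UMIs than those just outside on days 0 and 1.

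Within the mitochondrial transcripts, the classes differed little for some genes and more for others. COX2, a subunit of cytochrome c oxidase, made up 23.5% of mitochondrial UMIs in the members and 23.4% in the low-mitochondrial cells on day 0, 23.9% and 23.9% on day 1, and 29.9% and 25.4% on day 7. ND1 and ND2, subunits of complex I, were lower in the members on day 0 (3.01% against 4.38% and 2.74% against 4.49%) and nearer to each other on day 1 (3.37% against 3.67% and 3.36% against 3.55%), while on day 7 ND1 was 2.79% against 2.62% and ND2 2.21% against 2.25%. COX1 was 15.1% against 12.7% on day 0, 16.8% against 16.5% on day 1 and 13.8% against 19.3% on day 7, so its direction differed between libraries, and CYTB was 9.71% against 9.76%, 10.2% against 10.3% and 10.3% against 7.69%.

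FABP6 was required by the rule, so its level in the members is a description. Its level from day 0 to day 14 was 266 per 10000 (exact Poisson interval 259 to 274), 327 (319 to 336), 67.2 (57.0 to 78.7), 169 (159 to 180) and 115 (74.6 to 170). In barcodes of 1 to 100 UMIs, taken as free RNA, it was 10.4, 17.5, 0.221, 4.70 and 0.279, and in B cell-like barcodes 0.395, 0.361, 0.0233, 0.233 and 0.00979. The low-mitochondrial cells had 39.7, 99.4, 68.6, 168 and 140, so the classes were at the same level on days 3 and 7 and apart on days 0 and 1. The minimum of 5 UMIs asks for a higher level in a shallow barcode than in a deep one. The median barcode had 124 per 10000 in the members and 15.1 in the low-mitochondrial cells on day 0, 181 and 21.0 on day 1, and 121 and 86.7 on day 7, so that on days 0 and 1 the median low-mitochondrial barcode lay near the level of free RNA, though far above that of B cell-like barcodes. Barcodes were also thinned to 500 non-mitochondrial UMIs, and the rule was applied again with 2 FABP6 UMIs and 1 UMI of EPCAM, KRT8 and VIL1 together. The log2 fold change of FABP6 was then -0.38, against 1.21 before. The set of barcodes changed too: on day 0, 71 of the 117 thinned members had met the first rule.

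GUCA2A was 32.0 per 10000 in the members and 10.2 in the low-mitochondrial cells on day 0, 29.2 and 9.65 on day 1, 22.3 and 63.5 on day 3, and 3.99 and 8.52 on day 7. NAALADL1 was 4.0 and 1.32 on day 0, 3.39 and 1.79 on day 1, and 2.33 and 5.62 on day 7, and had 0 UMIs in both classes on day 3, which allows up to 1.31 per 10000 in the members. Both markers were higher in the members on days 0 and 1 and lower on day 7. Over the 3 libraries neither difference passed the test, with log2 fold changes of 0.55 ± 0.50 (SE; adjusted p = 0.432, edgeR) and 0.27 ± 0.48 (adjusted p = 0.705, edgeR). GUCA2A was uneven among the members: 31 of 97 barcodes held it on day 0, 28 of 97 on day 1 and 11 of 37 on day 7. On each of these days 1 barcode held a large part of its UMIs (25.3%, 26.8% and 33.3%). The call depended on the setting: GUCA2A was higher without day 7 (1.21, adjusted p = 0.00139, edgeR) and after thinning (1.42), and NAALADL1 was lower within 600 to 5000 UMIs (-1.28, adjusted p = 0.00292, edgeR). In free RNA GUCA2A was 10.6, 6.12 and 0.551 and NAALADL1 0.499, 0.448 and 0.517. GUCA2A and NAALADL1 were above free RNA in the members of days 0, 1 and 7. The rule did not use them, but they were chosen as markers with earlier results of these data known. Their levels are thus a description and no separate support for the name of the members. Of the epithelial genes of the rule, EPCAM was 14.6 against 11.4, 12.9 against 9.99 and 8.64 against 17.8, KRT8 13.4 against 20.8, 12.6 against 17.5 and 13.6 against 22.4, and VIL1 5.78 against 2.79, 5.80 against 3.33 and 6.15 against 4.24.

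**Figure D2:**
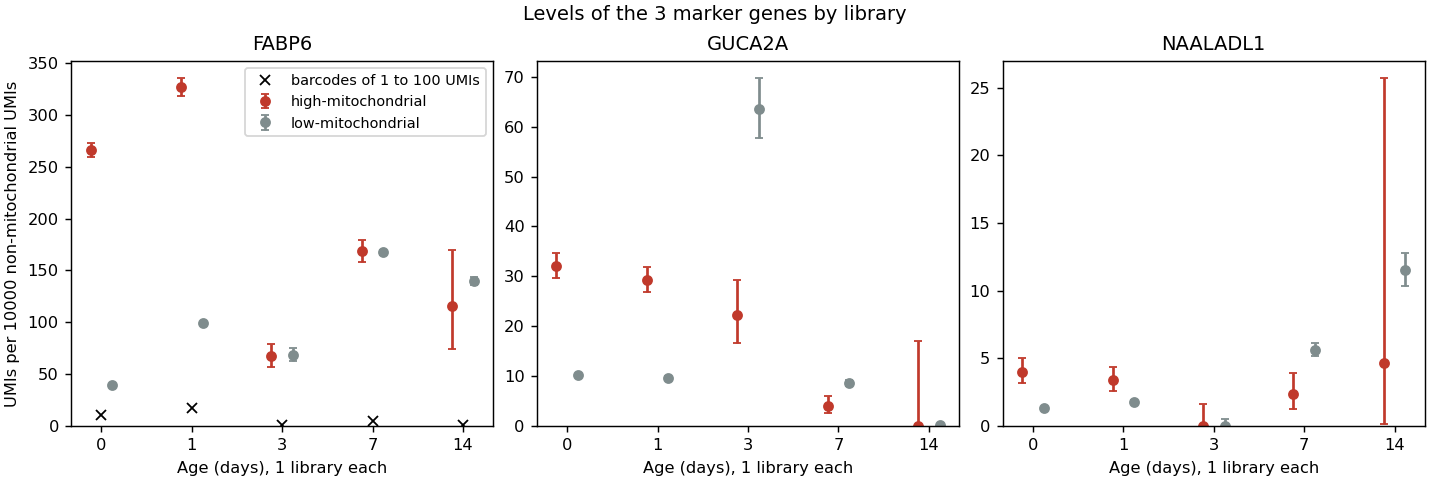
UMIs per 10000 non-mitochondrial UMIs of FABP6, GUCA2A and NAALADL1 by age, summed over the members (red) and the low-mitochondrial FABP6 enterocytes (grey) of 1 library per age, with exact 95% Poisson intervals; crosses show FABP6 in barcodes of 1 to 100 UMIs. FABP6 in the members was 266 on day 0 and 169 on day 7, and GUCA2A changed order between day 1 and day 7.

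To compare all other genes, UMIs were summed per library and class and fitted with edgeR, with the library as a block, in the libraries with at least 20 barcodes in each class, which were days 0, 1 and 7. The members contributed 197381, 182836 and 60191 non-mitochondrial UMIs and the low-mitochondrial cells 12014839, 5287871 and 972783. On days 0 and 1 the latter are barcodes that met the marker rule with a median FABP6 level near that of free RNA. Whether the contrast on these days lies within 1 cell type was not tested. Of 7090 genes tested, 968 (13.7%) were higher and 883 (12.5%) lower in the members at an adjusted p below 0.05, and the median log2 fold change of all genes was -0.00. Of these genes 918 and 880 had the same direction in all 3 libraries, beside 58.7% of all genes tested. The test was fitted to these same 3 libraries and favours genes with 1 direction, so this count is no separate support. The split depends on the scaling: without TMM factors 1423 were higher and 473 lower, and with all UMIs as the total 506 and 1794. The calls also rest on the day 1 library, since without it 0 genes were higher and 2 lower (REG3G and LOC100520832, the latter named after its value was seen), with 813 and 846 at an unadjusted p below 0.05; without day 0 there were 201 and 197, and without the block 261 and 102. The members were far shallower barcodes, so most groups below are also given within barcodes of 600 to 5000 non-mitochondrial UMIs, where 245 (13.7%) of 1788 genes were higher and 239 (13.4%) lower, 27.1% in all. In this range 85, 85 and 33 members of days 0, 1 and 7 gave 146710, 131668 and 46780 non-mitochondrial UMIs. Only 38, 15 and 20 low-mitochondrial barcodes were left, with 136487, 46107 and 66121. The members were thus still the shallower barcodes, and the range narrows the difference in depth without removing it.

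Single genes were ranked among those past the threshold with 1 direction in all 3 libraries and a mean level of at least 1 per 10000. Among the 12 genes with the highest rises by this naming rule was HSP70.2, the inducible cytosolic chaperone of the HSP70 family (chromosome 7, 23925929 to 23927854, Sscrofa11.1). It was 32.0 per 10000 in the members against 2.63 on day 0, 35.4 against 2.56 on day 1 and 60.6 against 10.0 on day 7, and also 14.4 against 2.29 on day 3. All of these members' values lay above all of the low-mitochondrial values. Its log2 fold change was 3.03 ± 0.29 (SE, n = 3 libraries; adjusted p = 0.00311, edgeR) and 2.25 in barcodes of 600 to 5000 UMIs. The gene has near-identical copies, so counts may be shared with them. It was found in 74 of 97 members on day 0, 73 of 97 on day 1 and 28 of 37 on day 7, and in free RNA at 10.8, 3.53 and 10.2.

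AHNAK, a giant scaffold protein under the plasma membrane, was 18.9 against 2.37 on day 0, 37.5 against 3.30 on day 1 and 13.3 against 1.89 on day 7, and 2.18 against 1.57 on day 3. Its log2 fold change over the 3 libraries was 2.81 ± 0.26. LOC110258215, on an unplaced scaffold, was 12.7 against 0.57, 19.5 against 0.77 and 5.48 against 0.85, the highest rise of these 12 at a log2 fold change of 3.72 ± 0.43. C17H8orf4 rose by 3.16 on the log2 scale, but on day 7 it was 0.997 against 0.658. The other 8 genes of the highest 12 were IL17REL (3.01), ITPKC (2.80), LOC110261482 (2.71), LOC106504121 (2.69), LOC100621538 (2.63), TNFAIP2 (2.61), IGSF5 (2.54) and ZFC3H1 (2.44). ITPKC phosphorylates inositol trisphosphate and IGSF5 is a junctional adhesion protein. LOC110261482 and LOC106504121 lie near each other on chromosome 7, at 20789150 to 20799337 and 20872535 to 20875411. All 12 kept their direction in barcodes of 600 to 5000 UMIs, with log2 fold changes of 1.47 (ITPKC) to 2.93 (LOC110258215), each past the threshold. On day 3 TNFAIP2 had the other direction, at 3.05 against 3.57. In the fit without day 1 no riser of these 12 passed.

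Of the 12 genes with the largest falls by the same naming rule, RBP2, which carries retinol in enterocytes, was 11.3 against 28.8 on day 0, 9.41 against 31.2 on day 1 and 1.33 against 13.9 on day 7 (log2 fold change -2.31 ± 0.36, adjusted p = 0.00502, edgeR). OLFM4, a marker of crypt base cells, was 0.30 against 0.91, 0.16 against 7.31 and 0 UMIs against 0.072 (-3.91 ± 0.69), and REG3G, a secreted antimicrobial lectin, was 0.051 against 0.776, 16.2 against 17.2 and 9.47 against 137 (-2.60 ± 0.72). RBP2 and REG3G were below the low-mitochondrial cells in each of these 3 libraries, by little for REG3G on day 1, whereas for OLFM4 this was seen on days 0 and 1 only, since 0 UMIs on day 7 allow up to 0.498. CCL25, the chemokine that draws gut-homing lymphocytes, was 5.37 against 12.5, 3.50 against 5.87 and 0.498 against 13.7 (-2.07 ± 0.57). The other 8 were SCPEP1 (-2.72), SPAI-2 (-2.67), MSMB (-2.47), C1H9orf16 (-2.32), SPINK1 (-2.24), LGMN (-2.21), RHOC (-2.11) and BEX4 (-2.11). SPINK1 is a trypsin inhibitor and LGMN a lysosomal protease. In barcodes of 600 to 5000 UMIs only REG3G, C1H9orf16, RBP2, LGMN and CCL25 could be tested, with LGMN at -0.55 (adjusted p = 0.265, edgeR) and the other 4 past the threshold; in the fit without day 1 REG3G alone passed. With 10 members on day 3 and 3 on day 14, 6 of these 12 genes had the other direction at 1 of these ages. SPAI-2 (44.1 against 11.2), OLFM4 (6.11 against 4.72), SPINK1 (4.36 against 2.29) and RHOC (0.436 against 0.143) were higher in the members on day 3, and CCL25 (13.8 against 9.98) and LGMN (4.61 against 1.82) on day 14. The members' values of RHOC, CCL25 and LGMN rest on 1, 3 and 1 UMIs, no more than the 3 UMIs that a count of 0 allows. Those of SPAI-2, OLFM4 and SPINK1 rest on 101, 14 and 10 UMIs.

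**Figure D3:**
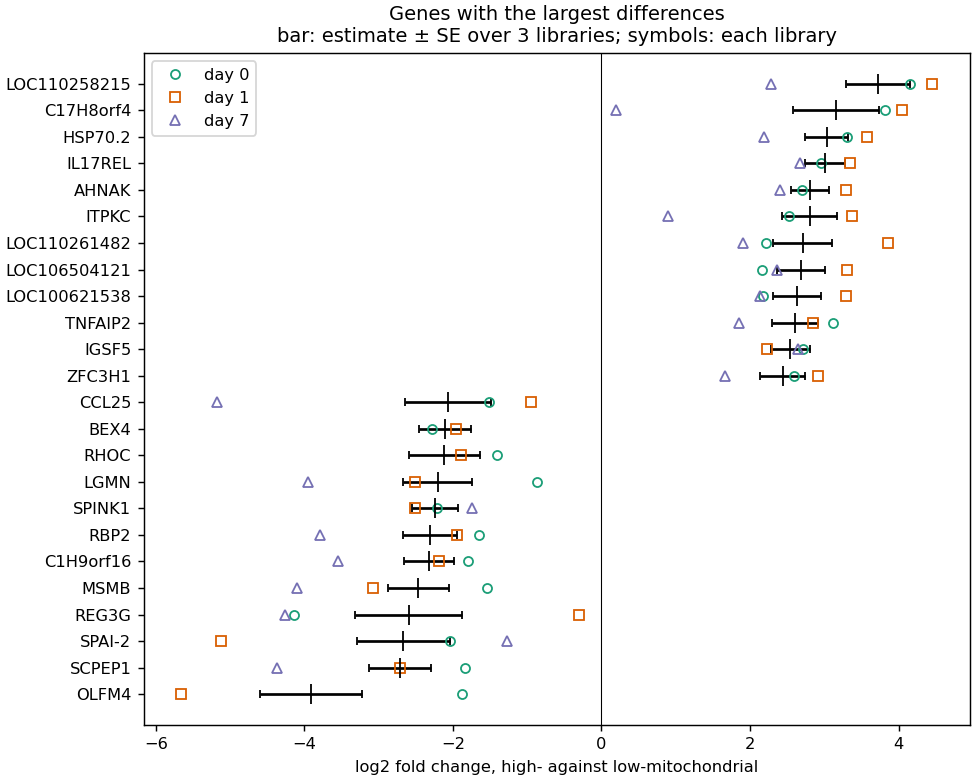
Log2 fold change of the members against low-mitochondrial FABP6 enterocytes for the 12 genes highest and the 12 lowest by the naming rule; black bars are the edgeR estimate ± SE over 3 libraries and symbols the value of each library. HSP70.2 and AHNAK lie at 2.19 or more in every library, while C17H8orf4 (0.19 on day 7) and REG3G (-0.30 on day 1) are near 0 in 1 library; 3 symbols for day 7 with 0 UMIs in the members (OLFM4, RHOC, BEX4) are not drawn.

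The nuclear genes of the respiratory complexes were mostly lower in the members. Of 38 nuclear complex I genes tested, 0 rose and 31 fell, beside 12.5% of all genes lower and 13.7% higher, and their median log2 fold change was -1.11, beside -0.00 over all genes. Among the 1418 tested genes of shortest genomic span the median was -0.63 and 28.6% were lower, and the part of span in the differences of the respiratory and ribosomal groups was not tested. Of 28 genes of complexes II to V, 0 rose and 25 fell (median -1.27). Summed, complex I was 54.9 per 10000 in the members against 80.9 on day 0, 42.1 against 77.1 on day 1 and 34.9 against 78.3 on day 7, and complexes II to V 84.1 against 142, 64.2 against 143 and 57.0 against 124. COX6C, a subunit of the same oxidase as the mitochondrially encoded COX1 to COX3, was 6.43 against 11.8, 4.05 against 10.9 and 3.16 against 10.7 (-1.63 ± 0.27). ATP5G3, of the ATP synthase ring, was 4.46 against 11.7, 3.88 against 11.9 and 4.15 against 10.7 (-1.76 ± 0.23), and SDHC, of the wholly nuclear complex II, fell by 2.09 on the log2 scale. On day 3 the sum of complex I was 80.7 against 68.3 and that of complexes II to V 120 against 128. In barcodes of 600 to 5000 UMIs 7 of 24 and 12 of 24 fell (medians -0.87 and -0.94). Without day 1, 0 of 38 and 0 of 28 passed in edgeR, with 25 and 23 lower at an unadjusted p below 0.05 and medians of -1.17 and -1.30; without day 0, 7 and 11 fell.

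The genes of the mitochondrial ribosome, which translates the 13 mitochondrial transcripts, showed the same direction. Of 50 tested, 0 rose, 25 fell and 25 did not pass (median -1.10), beside 12.5% of all genes lower and 13.7% higher, with summed levels of 34.9 against 55.6, 28.5 against 50.4 and 27.6 against 38.8. The lowest was MRPS6 (-2.50 ± 0.55). Of 14 genes tested on a list for the upkeep of mitochondrial DNA and RNA, 0 rose and 2 fell, a share near that of all genes. These were HSD17B10 (-1.69 ± 0.35) and ESRRA (-0.88 ± 0.29). The summed level of the list was 5.52 against 6.505, 5.85 against 6.42 and 9.14 against 5.64. Of 30 genes of fatty acid oxidation and the citric acid cycle, 14 fell and 1 rose. ECHS1, of fatty acid oxidation, was 2.74 against 6.86, 1.80 against 5.13 and 0.997 against 4.65 (-1.89 ± 0.29), whereas OGDH, of the citric acid cycle, was 5.12 against 1.29, 5.41 against 1.76 and 4.15 against 1.34 (1.46 ± 0.25). OGDH thus moved against its group in each library. Within 600 to 5000 UMIs, 2 of 9 mitochondrial ribosome genes and 3 of 9 oxidation and cycle genes fell, and OGDH rose (1.28). Without day 1 none of these groups had a gene past the threshold in edgeR, with 17 and 11 of the ribosome and the oxidation and cycle genes lower at an unadjusted p below 0.05, and without day 0 there were 1 and 4 that fell.

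Genes of the cytosolic ribosome formed the group with the most even fall. Of 80 tested, 0 rose, 74 fell and 6 did not pass (median -1.04), beside 12.5% of all genes lower and 13.7% higher. Their summed level was 2084 per 10000 in the members against 3387 on day 0, 1438 against 2513 on day 1 and 1072 against 1679 on day 7, so the members lay below in each of these 3 libraries. In free RNA it was 3372, 3089 and 3414, above the members on each day. On day 3 it was 2938 against 2641, with 10 and 7 barcodes. RPLP1, of the ribosomal stalk, was 80.7 against 143, 51.4 against 101 and 31.7 against 57.0 (-1.19 ± 0.14). In barcodes of 600 to 5000 UMIs 67 of 79 fell (median -0.74), and after thinning to 500 UMIs 18 of 77 did (median -0.76), where 18.5% of all 729 genes were lower, 28.3% higher and 46.8% either. Without day 1, 0 of 80 passed in edgeR, with 70 lower at an unadjusted p below 0.05 and a median of -1.07, and without day 0, 32 fell.

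**Figure D4:**
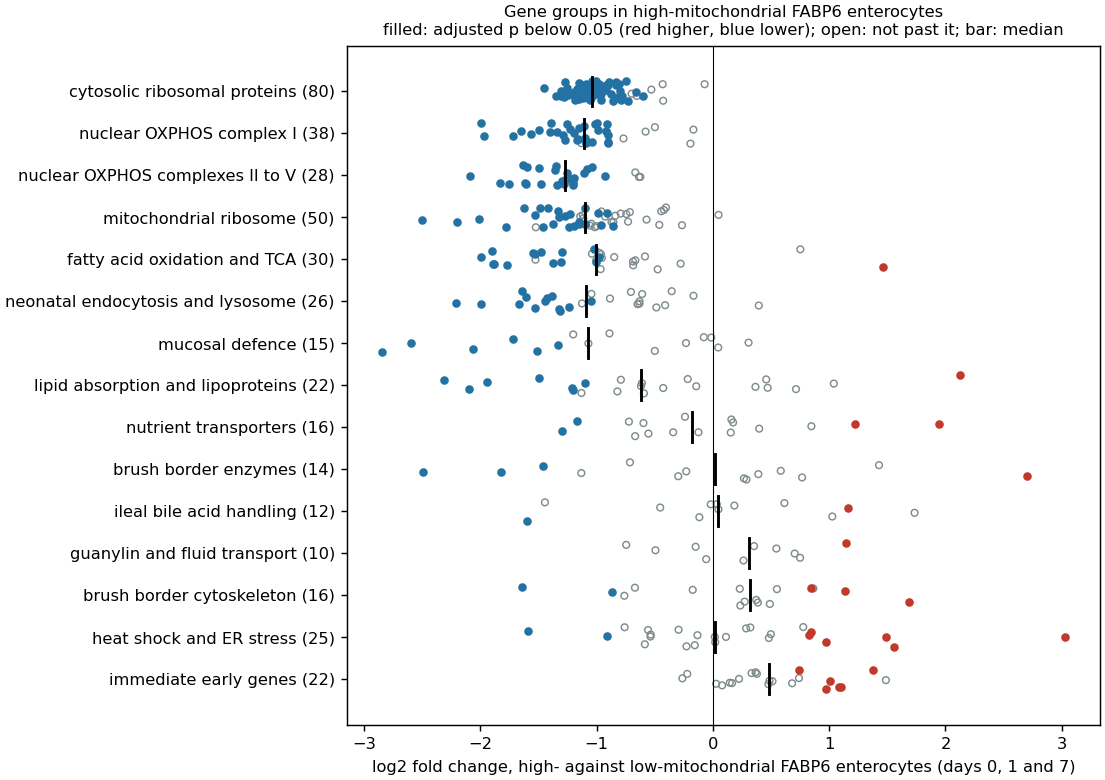
Log2 fold change of the members against low-mitochondrial FABP6 enterocytes (edgeR, days 0, 1 and 7) for each tested gene of 15 groups, with the number of genes in brackets and a black bar at the median. Red and blue points are past an adjusted p of 0.05 and open points are not; the ribosomal and respiratory groups lie almost wholly below 0, with medians between -1.27 and -1.04, and the immediate early genes have a median of 0.48.

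In the bile acid pathway the genes did not move as 1 group. Of 12 genes tested beside FABP6, 1 rose and 1 fell (median 0.04), beside 12.5% of all genes lower and 13.7% higher, so these counts, like those of fluid transport, are no result about the group. SLC51B, the exporter subunit, was 3.95 against 4.98, 2.24 against 4.54 and 0.665 against 8.07 (-1.6 ± 0.49, adjusted p = 0.0382, edgeR), and -1.76 within 600 to 5000 UMIs. Its partner SLC51A was 2.13 against 1.00, 2.35 against 1.51 and 0.665 against 2.32 (0.05 ± 0.43, adjusted p = 0.948, edgeR), and the difference between the subunits was not tested; within 600 to 5000 UMIs SLC51A was lower (-1.05, adjusted p = 0.0290, edgeR). ABCB1, an apical efflux pump, was 3.55 against 0.975, 3.01 against 0.966 and 2.66 against 1.67 and rose (1.16 ± 0.30), but did not pass within 600 to 5000 UMIs (0.47). The importer SLC10A2 was at 0.659 against 0.087, 0.711 against 0.076 and 0 UMIs against 0.648, and did not pass (adjusted p = 0.125, edgeR), and NR1H4, the nuclear bile acid receptor, was at 1.06 against 1.01, 0.82 against 1.11 and 1.99 against 2.15. Of 10 genes of guanylin signalling and fluid transport, 1 rose, the sodium-proton exchanger SLC9A3 (1.14 ± 0.31), and 0 fell (median 0.31); with DESeq2 0 of 10 passed (1 higher at an unadjusted p below 0.05), and without other-lineage barcodes 4 of 8 rose in edgeR (median 0.89). The receptor GUCY2C was 1.27 against 0.486, 0.984 against 0.575 and 1.33 against 0.730 (0.75 ± 0.28, adjusted p = 0.0741, edgeR). Without day 1 no gene of either group passed in edgeR, with 1 bile acid gene lower and 1 fluid transport gene higher at an unadjusted p below 0.05. Without day 0, 1 bile acid gene fell and 0 rose, and 0 fluid transport genes passed (2 lower at an unadjusted p below 0.05).

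The shares of genes called on the brush border lists were close to those of all genes (13.7% higher and 12.5% lower) and are given as a description. Of 14 enzymes tested on the list, MGAM, a starch-digesting glucosidase, was called higher, and MEP1A, PEPD and CNDP2, which cleave proteins and peptides, were called lower (median 0.02). The site of these enzymes in the cell was not measured. MGAM was 3.09 against 0.151 on day 0 and 1.59 against 0.166 on day 1, but 0.498 against 0.771 on day 7 (2.70 ± 0.66), and -0.08 within 600 to 5000 UMIs. MEP1A was 0.304 against 0.698, 0.273 against 1.56 and 0.166 against 2.26 (-2.49 ± 0.43). Of 16 genes of the microvillus skeleton, MYO15B (1.69), MYO1A (1.13) and ANKS4B (0.85) rose, and PDZK1 (-1.64) and KRT19 (-0.87) fell. MYO15B was 5.88 against 1.36, 8.53 against 1.80 and 5.98 against 2.05, and was also past the threshold within 600 to 5000 UMIs (1.27), as were ANKS4B (1.01) and PDZK1 (-1.52). Of 16 nutrient transporters, the glucose transporter SLC2A1 (1.95, level on day 0 0.0507 against 0.0508) and the amino acid transporter SLC6A20 (1.22) rose, and SLC7A7 (-1.17) and SLC7A9 (-1.30), of the basic amino acid system, fell. Without day 1 no gene of these 3 groups passed in edgeR, with 1, 2 and 1 higher and 3, 2 and 2 lower at an unadjusted p below 0.05. Without day 0, 0 enzymes rose and 3 fell, 1 skeleton gene rose and 1 fell, and 1 transporter rose and 0 fell.

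Of 22 lipid absorption genes tested, 7 fell, 1 rose and 14 did not pass (median -0.61), beside 12.5% of all genes lower and 13.7% higher. On day 0 the median was -0.09 and the summed level was higher in the members, 136 against 119. The fatty acid binding protein FABP2 was 7.70 against 9.53, 7.06 against 17.0 and 4.32 against 18.4 (-1.49 ± 0.34), and FABP1 was 17.0 against 16.2, 5.36 against 11.2 and 7.14 against 19.6 (-1.10 ± 0.31), with similar levels on day 0. APOC2, of chylomicrons, was 18.6 against 30.9 and 5.14 against 24.7, and on day 7 0 UMIs against 0.658 (-1.94 ± 0.41). ABCG5, a subunit of the sterol exporter, was 1.47 against 0.216, 1.09 against 0.267 and 1.33 against 0.257 (2.13 ± 0.29). Within 600 to 5000 UMIs 5 of 14 fell and ABCG5 did not pass (0.86, adjusted p = 0.158, edgeR). Without day 1, 0 of 21 passed in edgeR, with 7 lower and 1 higher at an unadjusted p below 0.05, and without day 0, 6 fell and 1 rose.

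Genes of endocytosis and the lysosome, with which the neonatal enterocyte takes up and digests milk protein, were lower or did not pass. Of 26 tested, 13 fell and 0 rose (median -1.09), beside 12.5% of all genes lower and 13.7% higher, with summed levels of 42.5 against 50.2, 38.0 against 77.0 and 23.3 against 85.3. The difference was smallest on day 0. DAB2, an endocytic adaptor, was 2.63 against 4.61, 2.68 against 6.89 and 2.82 against 5.23 (-1.33 ± 0.26), but -0.12 within 600 to 5000 UMIs, where 2 of 16 fell. FCGRT, the neonatal Fc receptor subunit that carries immunoglobulin G, was 5.17 against 7.97, 4.10 against 7.49 and 2.82 against 10.7 (-1.39 ± 0.31), and LGMN is given above. Of 15 mucosal defence genes 6 fell and 0 rose (median -1.07), among them REG3G, CCL25, the thioredoxin TXN (-1.51), the superoxide dismutase SOD1 (-1.33) and RETNLB, which had 0 UMIs in the members on days 1 and 7. Without day 1, 0 of 26 and 1 of 16 fell, REG3G, with 11 and 8 lower at an unadjusted p below 0.05 in edgeR, and without day 0, 8 and 1 fell.

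Immediate early genes rose more often than they fell. Of 22 immediate early genes, which respond to a signal without new protein synthesis, 6 rose and 0 fell (median 0.48), beside 13.7% of all genes higher and 12.5% lower. JUN was 55.5 per 10000 against 25.8, 52.0 against 20.7 and 36.4 against 22.3 (0.74 ± 0.20), and FOSB was 20.5 against 6.72, 17.1 against 5.98 and 7.97 against 2.11 (1.37 ± 0.22). KLF4 (1.10), FOSL2 (1.08), ATF3 (1.01) and IER3 (0.98) also rose. Of 25 heat shock and endoplasmic reticulum genes 6 rose and 2 fell (median 0.02), with summed levels of 178 against 99.1, 173 against 113 and 214 against 113. BAG3 (1.56), HSPH1 (1.49), HSP90AA1 (0.98), HSPA5 (0.84) and DNAJB1 (0.83) rose beside HSP70.2. Those that fell were mitochondrial chaperones, HSPE1 (-1.59) and HSPA9 (-0.91). The balance of heat shock genes depended on the setting. With all UMIs as the total 3 rose and 6 fell (median -0.36), beside 506 and 1794 of all genes. With no filter on low counts 4 rose and 5 fell of 28. Within 600 to 5000 UMIs 6 of 18 immediate early and 9 of 20 heat shock genes rose, medians 0.68 and 0.66, beside 13.7% of all genes. After thinning to 500 UMIs 5 of 15 and 5 of 16 rose, medians 0.57 and 0.62. These shares were near the 28.3% of all 729 genes that were higher there, so the thinned counts are no result about either group. Without day 1 no gene of either group passed in edgeR, with 4 and 5 higher at an unadjusted p below 0.05. Without day 0, 1 and 1 rose.

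The shares of cell death and villus tip genes called were near those of all genes (13.7% higher and 12.5% lower), and the called genes are given as single genes. Of 23 cell death genes tested, APAF1, the apoptosome scaffold, was 1.47 against 0.327, 1.53 against 0.465 and 2.16 against 0.699 (1.57 ± 0.27) and the inhibitor of apoptosis BIRC3 was 10.8 against 2.27, 17.3 against 6.55 and 16.4 against 5.86 (1.41 ± 0.26). Both also passed within 600 to 5000 UMIs (1.64 and 1.38). VDAC1, PHB and PHB2, proteins of the mitochondrial membranes, fell (-1.24, -1.19 and -1.32), and 18 did not pass (median -0.29). Of 20 junction genes DSP (1.49), TJP1 (1.09), JUP (1.03) and CTNND1 (0.97) rose and CLDN15 (-1.74) and LGALS4 (-0.81) fell. Of 12 villus tip genes EGFR (1.6) and KLF4, which is also in the immediate early list, rose and LGALS3 (-1.41) fell. Of 15 crypt and proliferation genes 5 fell, among them OLFM4, SPINK1 and PCNA (-1.72), while SOX4, a transcription factor of progenitor and secretory cells, rose, at 11 against 3.72, 21.5 against 4.54 and 13 against 2.07 on the 3 days (1.84 ± 0.27). Within 600 to 5000 UMIs 1 of 9 villus tip genes rose and 4 fell, beside 13.7% of all genes higher and 13.4% lower. Their median was -0.42 there, against 0.22 without this range. Of 5 crypt genes 1 rose and 1 fell there, and their median was 0.29, against -0.81. Of 13 cell death and 13 junction genes 2 and 2 rose and 0 fell (medians -0.20 and 0.27). Without day 1 none of these 4 groups had a gene past the threshold in edgeR, with 2, 3, 2 and 1 higher and 4, 1, 1 and 4 lower at an unadjusted p below 0.05, and without day 0, 0 cell death and 0 junction genes passed, 1 crypt gene rose and 1 fell and 1 villus tip gene fell.

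Transcripts of other cell types were present and partly came from single barcodes. On day 0, 1 member with 6497 non-mitochondrial UMIs held 630 of 736 UMIs of the goblet gene TFF3, and the member that held 52 of 78 UMIs of MUC2 had the same number. On day 0, 1 other member held 921 of 926 UMIs of somatostatin (SST) and on day 7, 1 member held 3056 of 3057 UMIs of neurotensin (NTS) and 160 of 161 of PYY, both gut hormones. The summed enteroendocrine list was therefore 60.2 against 5.13 on day 0, 5.58 against 10.4 on day 1 and 545 against 0.422 on day 7, and of its 6 genes tested only CHGA passed (1.65 ± 0.37), beside 13.7% of all genes higher and 12.5% lower, with 14 of 18 UMIs on day 0 and 32 of 38 on day 1 in 1 barcode. The goblet list was 72.6 against 29.6, 5.30 against 44.0 and 2.99 against 12.5, and 0 of its 6 genes tested passed in edgeR, with 2 lower at an unadjusted p below 0.05 and 1 lower in DESeq2; without day 0, 2 fell. Of 7 BEST4 cell markers tested BEST4 (2.94 ± 0.34) and SPIB (0.99 ± 0.25) rose and 0 fell. The list of BEST4 cell markers also holds GUCA2A, named above as a marker of the members, and GUCA2B. GUCA2A did not pass (0.55). BEST4 UMIs were in 4 of 97 members on day 0 and 6 of 97 on day 1, where 1 barcode held 7 of 15 and 12 of 28 UMIs. Without day 1 none of the BEST4, enteroendocrine and goblet markers passed in edgeR (1, 8 and 1 higher at an unadjusted p below 0.05), and within 600 to 5000 UMIs SPIB was at 0.07.

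Immune and stromal markers were low. The B lineage list of 12 genes was 2.48 against 1.25, 2.68 against 1.89 and 10.8 against 8.64, with CD79A at 0 in the members of all 3 days, and of 5 genes tested CD22 rose (2.24) and TXNDC5, a chaperone of secretory cells, fell (-1.5), beside 13.7% of all genes higher and 12.5% lower; without day 1 or day 0 neither passed. The T and NK list of 14 was 5.17 against 1.26, 1.97 against 0.552 and 3.16 against 2.92, with CD3D at 0. The myeloid list of 14 was 1.82 against 1.21, 3.83 against 4.22 and 1.5 against 3.39, the stromal and endothelial list of 14 at most 2.69 in the members, the tuft list of 9 at most 3.32 and the erythroid list of 6 at most 0.498. In free RNA of the same libraries the T and NK list was 17.6, 10.3 and 7.13 and the B lineage list 5.24, 5.87 and 31.9. Other-lineage barcodes had 3 or more UMIs of the B lineage, T and NK, myeloid, stromal and endothelial, enteroendocrine and erythroid lists together. The tuft and goblet lists were not used for this. Other-lineage barcodes were 39.2%, 25.8% and 37.8% of the members and 70.8%, 87.8% and 75.5% of the deeper low-mitochondrial barcodes. Without them 422 of 2529 genes were higher and 328 lower, and 3 of 4 BEST4 markers rose. In that fit 62 of 80 cytosolic ribosomal genes were lower (median -0.96), as were 21 of 35 of complex I and 18 of 27 of complexes II to V, but only 3 of 21 endocytosis and lysosome genes (median -0.64) and 0 of 6 crypt and proliferation genes in edgeR (median 0.20, 1 lower at an unadjusted p below 0.05).

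The genes that differed also differed in their genomic span, the distance from the first to the last annotated base in Sscrofa11.1. The median span was 59060 bp in the 968 genes that were higher, 10093 bp in the 883 that were lower and 26584 bp in all 7090. Without the listed ribosomal, respiratory and mitochondrial ribosome genes, the 728 other lower genes had a median of 11324 bp. In 5 groups of 1418 genes by span, the median log2 fold change was -0.63, -0.27, -0.09, 0.18 and 0.63 from the shortest to the longest. The share of genes that were higher was 6.49% in the shortest and 27.9% in the longest group, and the share that were lower 28.6% and 1.55%. The same order was present in each of the 3 libraries, in barcodes of 600 to 5000 UMIs (-0.56, -0.20, 0.13, 0.31 and 0.76) and after thinning to 500 UMIs (-0.66, -0.37, 0.42, 0.83 and 1.63). After thinning, the members of days 0, 1 and 7 held a median of 388, 399 and 410 genes in 500 UMIs, against 329, 351.5 and 362. MALAT1, NEAT1 and the other 2 listed nuclear RNAs are not among the genes analysed here.

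**Figure D5:**
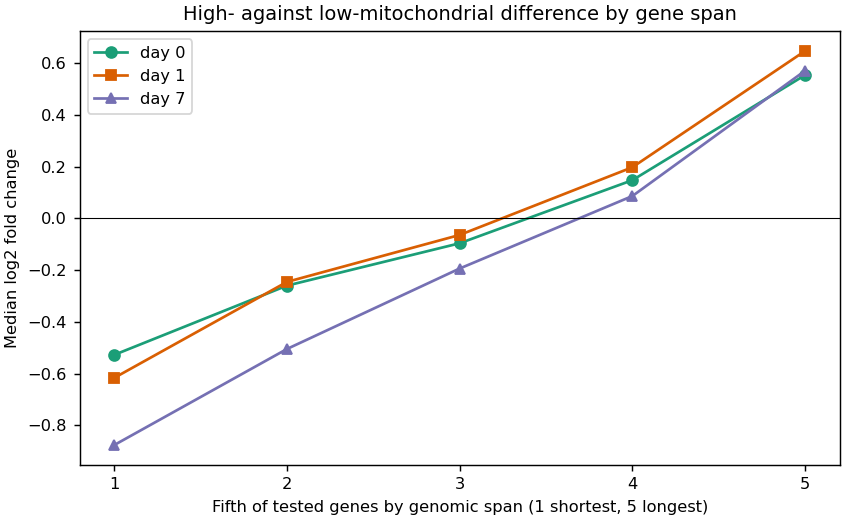
Median log2 fold change of the members against low-mitochondrial FABP6 enterocytes in 5 equal groups of the 7090 tested genes, from the shortest to the longest genomic span, for each library. All 3 lines rise, from -0.53 to 0.55 (day 0), -0.62 to 0.65 (day 1) and -0.88 to 0.57 (day 7).

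To ask whether these differences were particular to FABP6 enterocytes, the same contrast was made in epithelial barcodes with fewer than 5 FABP6 UMIs, and the difference between both contrasts was tested. In the FABP6-low barcodes 1636 (16.6%) of 9862 genes were higher and 1568 (15.9%) lower at high mitochondrial share. The interaction called 0 of 10495 genes in edgeR, with 503 (4.79%) at an unadjusted p below 0.05, and 4 (0.0381%) in DESeq2 (CCK, CADPS, EMB and CITED1, named after their values were seen). No gene is therefore given as particular to the FABP6 members, and the small number of libraries does not show that both contrasts were equal. HSP70.2 had a log2 fold change of 2.45 in the FABP6-low barcodes and 3.03 in the FABP6 members, AHNAK 2.13 and 2.81, RBP2 -0.70 and -2.31, and the median of the cytosolic ribosomal genes was -1.06 and -1.04. CCL25 was -0.23 and -2.07 and BEX4 -0.54 and -2.11, with an adjusted p of 0.951 for the interaction of both in edgeR.

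Across ages the members were followed as levels only. FABP6 was highest on day 1 and lowest on day 3. GUCA2A was near 30 on days 0 and 1 and 3.99 on day 7, where the low-mitochondrial cells had 8.52, and 1 barcode held 143 of 534 of its UMIs on day 1 and 8 of 24 on day 7. HSP70.2 was 35.4 on day 1, 14.4 on day 3 (9.91 to 20.2) and 60.6 on day 7 (54.6 to 67.2). The summed mucosal defence genes were 53.8, 95.4, 26.2, 44.2 and 180 per 10000 from day 0 to day 14 in the members and 45.5, 93.4, 69.5, 245 and 402 in the low-mitochondrial cells. The sum of lipid genes was 136, 90.3, 3.49, 24.6 and 115 at the same ages in the members, and 119, 156, 10.2, 134 and 155 in the low-mitochondrial cells, so both were lowest on day 3. None of the 10 members of day 3 held a UMI of FABP1, APOA4, SLC51B, KRT20, ANPEP, SLC10A2 or NAALADL1. FABP2 was held by 10% of them and GUCA2A by 40%. Of the 7 low-mitochondrial barcodes of day 3, 71.4% held KRT20 and 42.9% ANPEP, but none APOA4, SLC51B or NAALADL1. Apart from the rule genes, the day 3 members thus carried few of these enterocyte transcripts. Differences between ages cannot be told apart from differences between the libraries.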

How the data were processed

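Per the submitters' processing notes, reads were processed with Cell Ranger 3.1.0 and STAR on the pig genome susScr11 (Sscrofa11.1). The deposited matrices hold unfiltered counts of UMIs, which the authors did not normalize (6 libraries, 77391932 to 100348769 UMIs each). The labels name a kit of the third version and the methods one of the second, and the series text names the cecum where labels and methods name the ileum. Members and gene lists were chosen with earlier results of these data known. No doublet caller was run. Mitochondrial genes were removed before library sizes. Counts were summed per library and class and tested with edgeR 4.0.16 (quasi-likelihood, TMM, filterByExpr, ~ library + class, Benjamini-Hochberg below 0.05). The p-values thus rest on the spread of the difference between the classes over 3 libraries of different age. Both classes come from the same library, which is what pairs them. The script was tested on simulated data. Named genes were the 12 highest and 12 lowest past the threshold with 1 direction in all 3 libraries and a mean level of at least 1 per 10000, the markers, the rule genes, and 2 to 4 genes per list. Free RNA means barcodes of 1 to 100 UMIs. Intervals are exact (95%) and cover counting error only, since no depth beyond UMIs is used. A count of 0 allows 3 UMIs, which is 0.152, 0.164 and 0.498 per 10000 in the members of days 0, 1 and 7. Alternatives were DESeq2 1.42.0, other scalings and filters, libraries left out, thinning to 500 UMIs, and 2 chosen after seeing the data: 600 to 5000 non-mitochondrial UMIs (at least 15 barcodes) and no barcodes over 30000 UMIs.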

Additional observations from a re-analysis of the deposited data

How the results depend on the processing

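The number of genes that were higher in the members was 609 with DESeq2, 506 with all UMIs as the total, 261 with no replicate block (here the library that pairs both classes), 206 after thinning to 500 UMIs, 422 without other-lineage barcodes and 245 within 600 to 5000 UMIs, against 968, and 0 to 902 when 1 library was left out. The number that were lower was 473 without TMM, 1794 with all UMIs as the total, 1597 with no filter on low counts, 102 with no replicate block, 135 after thinning, 328 without other-lineage barcodes and 239 within 600 to 5000 UMIs, against 883, and 2 to 1178 when 1 library was left out. The interaction called 4 genes higher with DESeq2, 30 higher and 10 lower with no filter, and 0 to 1 higher when 1 library was left out. Thinning, the range of UMIs and the left-out barcodes also lower the number of genes tested; the other causes were not tested. GUCA2A (0.55) turned to -0.019 without day 0, -0.017 without day 1, -0.38 within 600 to 5000 UMIs and -0.43 without barcodes over 30000 UMIs. NAALADL1 (0.27) turned to -0.11 with all UMIs as the total, -0.0196 with no replicate block, -0.42 without day 0, -0.08 without day 1, -0.44 after thinning, -0.28 without other-lineage barcodes, -1.28 within 600 to 5000 UMIs and -0.0088 without barcodes over 30000 UMIs. Leaving out 1 library in turn gave -0.02 to 1.21 for GUCA2A and -0.42 to 0.85 for NAALADL1. Over the 24 genes with the largest differences by the naming rule, GUCA2A and NAALADL1, 278 values kept their direction and side of the threshold, 44 kept only their direction, 6 passed the threshold anew and 12, given above, changed direction. Genes named from the lists are not in this tally. Among the 3 libraries fitted, depth limits day 7 most, where 37 members gave 60191 non-mitochondrial UMIs and a count of 0 allows up to 0.498 per 10000.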
